A study of Mus musculus with 59 samples.

Results

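Hippocampus libraries of male mice were compared by their measured level of Slc25a1, the gene of the mitochondrial citrate carrier. Each library was placed by its CPM (the gene's raw count divided by the library total and scaled to 1e+06 counts): 12 of the 29 hippocampus libraries, out of 59 libraries in the whole series, lay under 17 CPM and form the low group, and 17 lay at or above it and form the high group. The low libraries ran from 11.1 to 13.25 CPM with a median of 12.1, and the high libraries from 21.54 to 26.95 CPM with a median of 24.6, so that 13.25 and 21.54 CPM are the values just inside and just outside the limit. These Slc25a1 values chose the groups and are no result. The low group held 2 libraries labelled Mrpl40 +/+, Slc25a1 +/+, 5 labelled Mrpl40 +/+, Slc25a1 -/+ and 5 labelled Mrpl40 -/+, Slc25a1 -/+. The high group held 6 libraries labelled Mrpl40 +/+, Slc25a1 +/+, 2 labelled Mrpl40 +/+, Slc25a1 -/+, 7 labelled Mrpl40 -/+, Slc25a1 +/+ and 2 labelled Mrpl40 -/+, Slc25a1 -/+. Mrpl40 is a large-subunit protein of the ribosome inside mitochondria, and both genes lie in the mouse region that matches human 22q11.2. Every hippocampus library came from a separate animal, and all animals were male. The labels state neither age nor strain.

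The citrate carrier moves citrate out of the mitochondrial matrix in exchange for malate. In the cytosol, citrate is split to acetyl-CoA, which feeds fatty acid and sterol synthesis and protein acetylation, and its export also touches the balance of reducing equivalents between the compartments. When mitochondria are impaired, cells can switch on ATF4, a transcription factor that raises enzymes of serine, asparagine and proline synthesis.

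In 6 of the 29 animals the level went against the Slc25a1 label: 2 labelled Slc25a1 +/+ lay low (animals 6 and 7), and 4 labelled Slc25a1 -/+ lay high (animals 12, 13, 29 and 30). Why was not tested. The cortex library of the same animal placed each of the 29 animals in the same group, so the grouping can be had from libraries that the hippocampus tests do not use. Library totals ran from 22181973 to 29895407 counts in the low group and from 21467790 to 30347791 in the high group. The Mrpl40 label, used as a covariate throughout, was not matched by a difference in Mrpl40 itself, which averaged 15.8 ± 1.09 CPM (SD, n = 15) in hippocampus libraries labelled Mrpl40 +/+ and 15.8 ± 1.09 CPM (SD, n = 14) in those labelled Mrpl40 -/+. The libraries carried markers of dentate granule cells (summed 898 to 1955 CPM) and of CA1 pyramidal cells (188.7 to 804 CPM). The library of animal 12, in the high group, stood apart with 1008 CPM of summed cerebellum markers, against a median of 107.7 CPM over the 29. The library of animal 22, also high, had the highest summed ependymal markers (30.4 CPM, where the high median was 6.45 CPM) and CA3 markers (636.2 CPM) and the lowest summed dentate granule markers.

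No gene other than Slc25a1 passed the test between low and high libraries. The quasi-likelihood test of edgeR, with the Mrpl40 label as covariate and Benjamini-Hochberg adjustment at 0.05, called 0 of 19983 genes (0%), and 850 (4.25%) had an unadjusted p under 0.05, of which 447 were higher and 403 lower in low libraries. The Wald test of DESeq2 also called 0 genes, with 1150 at an unadjusted p under 0.05. For 0 genes did the CPM ranges of the groups fail to overlap. The median absolute log2 difference over all genes was 0.044, and its median standard error was 0.066. The values below are therefore those of genes that did not pass, with the single gene nearest to the limit first.

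Pycr1 (ENSMUSG00000025140) had the smallest adjusted p. It encodes the mitochondrial pyrroline-5-carboxylate reductase, which makes proline from glutamate-derived precursors in the last step of that route. In low libraries it ran from 2.81 to 3.83 CPM with a median of 3.14, and in high libraries from 2.07 to 3.05 CPM with a median of 2.54. All 12 low libraries lay above the high group's median, 10 of the 12 lay above the highest high library, and 14 of the 17 high libraries lay below the lowest low library. The mean was 3.22 ± 0.274 CPM (SD, n = 12) against 2.52 ± 0.278 CPM (SD, n = 17), a log2 difference of 0.35 ± 0.064 (SE; edgeR adjusted p = 0.0547). Pycr1 was picked as the gene of smallest p with the 6 animals whose level goes against the label already placed by level, so their values and the comparison with the label are a description and no separate support. Animals 6 and 7 had 3.24 and 3.15 CPM of Pycr1, animals 12 and 13 had 2.24 and 2.26 CPM, and animals 29 and 30 had 2.18 and 2.66 CPM. Grouped by the Slc25a1 label in place of the level, the same libraries gave Pycr1 a log2 difference of 0.15 ± 0.083. Without the 6 animals the log2 difference of Pycr1 was 0.31 ± 0.074 (edgeR adjusted p = 0.590).

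**Figure D1:**
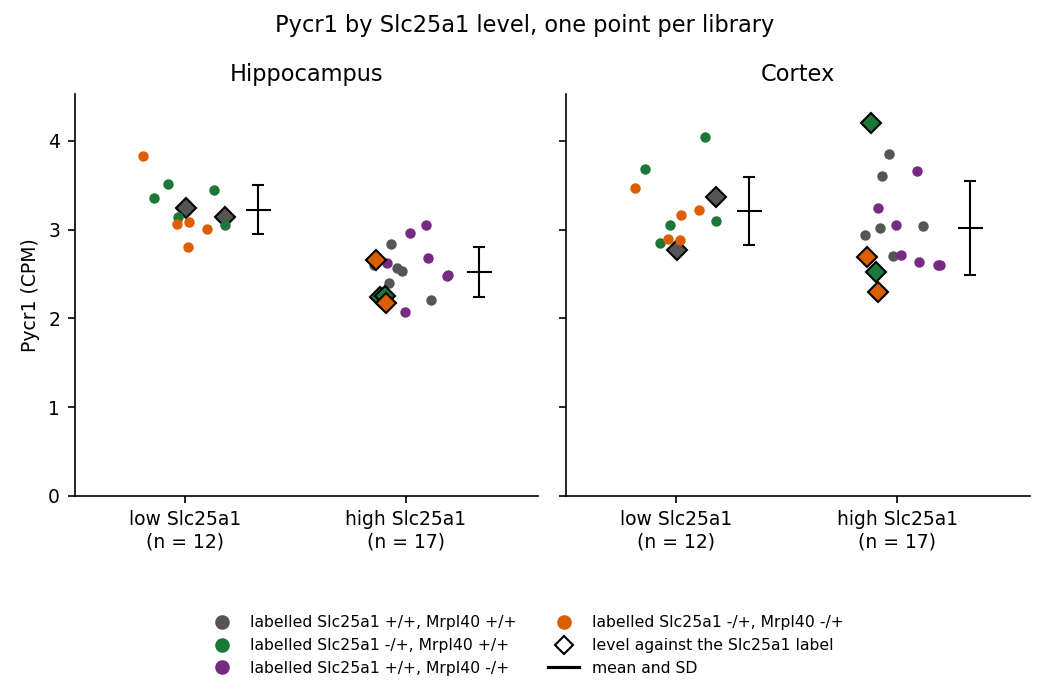
Pycr1 in CPM (vertical axis, from 0) in the hippocampus and cortex library of each of the 29 animals, by Slc25a1 level. Points are libraries coloured by labelled genotype, diamonds are animals whose level goes against the Slc25a1 label, and bars give mean and SD: in hippocampus 3.22 against 2.52 CPM, in cortex 3.21 against 3.02 CPM.

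Whether Pycr1 lay on either side of the adjusted limit turned on single libraries. Leaving out each of the 29 libraries in turn gave log2 differences from 0.32 to 0.37 and edgeR adjusted p-values from 0.0269 to 0.262. The call was made without animal 2 (labelled Mrpl40 +/+, Slc25a1 +/+, adjusted p = 0.0471), without animal 23 or 24 (labelled Mrpl40 -/+, Slc25a1 +/+, 0.0295 and 0.0334) or without animal 31 (labelled Mrpl40 -/+, Slc25a1 -/+, 0.0269), and it was also made with no Mrpl40 covariate (0.0474).

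The promoter of Pycr1 is shown because it holds the pattern TGATGNAA, the core of the C/EBP-ATF response element through which ATF4 is known to act, and that of Chac1 for comparison, since Chac1, a glutathione-degrading enzyme, had the next smallest p among the ATF4 and mitochondrial stress genes. Both are the 250 bases before the start in RefSeq's table, 5′ to 3′ on the gene's own strand, with the match in capitals. Pycr1 lies on the minus strand at chr11:120643749-120643998, and Chac1 on the plus strand at chr2:119350992-119351241, both in GRCm38.p6, which is not the build named in the submitters' processing notes.
Pycr1: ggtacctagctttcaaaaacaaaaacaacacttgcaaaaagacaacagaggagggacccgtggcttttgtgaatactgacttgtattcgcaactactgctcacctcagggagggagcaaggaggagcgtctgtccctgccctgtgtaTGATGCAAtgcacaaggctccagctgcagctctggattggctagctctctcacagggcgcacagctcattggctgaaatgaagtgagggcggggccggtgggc
Chac1: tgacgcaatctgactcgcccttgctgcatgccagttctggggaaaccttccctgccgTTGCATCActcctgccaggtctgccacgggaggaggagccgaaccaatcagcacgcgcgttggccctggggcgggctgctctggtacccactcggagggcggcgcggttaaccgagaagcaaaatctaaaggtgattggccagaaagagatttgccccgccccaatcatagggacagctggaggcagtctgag
The match begins 103 bases before the start in Pycr1 and 193 bases before it in Chac1, where it is read on the other strand as TTNCATCA. Searched on both strands, the pattern stood in 1134 of 32851 windows of that length (3.45%) and in 5 of the 24 windows found for tested genes of the ATF4 list, those of Asns, Chac1, Nupr1, Pycr1 and Slc7a11. The list was drawn up around ATF4, so its share of matches is no finding of these data. It counts a single window per gene, where the total counts every window, so the shares are not measured alike. A match is a description of the sequence and no measurement of binding.

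Chac1 itself ran from 2.43 to 5.66 CPM (median 4.19) in low libraries and from 2.33 to 5.04 CPM (median 2.82) in high libraries, a log2 difference of 0.26 ± 0.13, and the groups overlapped over nearly their whole range. Of the 28 tested genes of the ATF4 and mitochondrial stress list, 23 were above 0 and 5 below, with a median log2 difference of 0.034 beside -0.0015 over all genes; 0 passed, and Pycr1 was the single member at an unadjusted p under 0.05. Atf4 differed by 0.085 ± 0.063, and by 0.055 ± 0.064 without animal 25, a low library labelled Mrpl40 -/+, Slc25a1 -/+. Without the 6 animals whose level goes against the label, 19 of the 28 were above 0, with a median of 0.061 beside 0.0011 over all genes. In cortex 25 of the 28 were above 0, with a median of 0.069 and 6 higher at an unadjusted p under 0.05, beside 4.44% of all cortex genes.

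Other genes of proline handling, chosen after their values were seen, had smaller differences than Pycr1. Aldh18a1, which makes the pyrroline-5-carboxylate that Pycr1 reduces, averaged 21.6 ± 1.97 CPM in low and 20.2 ± 2.38 CPM in high libraries (log2 difference 0.090 ± 0.056). Prodh, the enzyme that begins proline breakdown and a chromosome 16 neighbour of Slc25a1, averaged 36.7 ± 3.44 CPM in low and 38.4 ± 4.53 CPM in high libraries, a log2 difference of -0.089 ± 0.052. Slc6a7, the brain proline transporter, differed by -0.11 ± 0.12 in hippocampus and by -0.23 ± 0.056 in cortex (edgeR adjusted p = 0.234). Others of the group lay near 0 in hippocampus, with Pycrl at -0.0098 ± 0.048, Oat at -0.0046 ± 0.031 and Aldh4a1 at 0.031 ± 0.047.

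Genes with a blank or predicted gene's symbol were passed over, and the 20 of smallest p among the rest, Pycr1 included, were taken. They reach down to rank 33 by p, and 12 were higher and 8 lower in low libraries. For the 19 besides Pycr1 the adjusted p was 0.995 in edgeR. No other gene named here was below that value in the comparison of low with high hippocampus libraries. These values chose the genes, so their sizes are a description. Among the higher, Cd274, the checkpoint ligand PD-L1, ran from 2.25 to 3.48 CPM (median 2.72) in low and from 1.71 to 3.39 CPM (median 2.10) in high libraries, with all 12 low libraries above the high median and 13 of 17 high libraries below the lowest low one (log2 difference 0.35 ± 0.087). The highest of those high values, 3.39 CPM, was that of animal 23. C4b, the complement component, ran from 45.5 to 98.1 CPM (median 54.2) in low and from 37.2 to 59.5 CPM (median 48.9) in high libraries (0.30 ± 0.086), with 4 low libraries above the range of the high group. Its reads can be shared with those of its near-copy, so the value of C4b is uncertain.

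Aff2, a nuclear protein linked to X-linked intellectual disability, averaged 2.28 ± 0.604 CPM against 1.65 ± 0.366 CPM (log2 difference 0.46 ± 0.12). Spg11, spatacsin, a lysosomal protein mutated in hereditary spastic paraplegia, averaged 17.9 ± 1.53 CPM against 16.0 ± 1.35 CPM (0.15 ± 0.042). Sass6, a core protein of centriole assembly, ran from 4.18 to 6.09 CPM in low and from 3.74 to 4.96 CPM in high libraries (0.18 ± 0.055), and 6 of the 12 low libraries lay above the highest high one. The polarity scaffold Mpp5 differed by 0.11 ± 0.032 and Cep83os, a transcript opposite a centriole gene whose reads may not be told apart from it, by 0.11 ± 0.031. Scarcer genes on the higher side were Adgrg2, an adhesion receptor (0.42 ± 0.13), Apobec2, of the cytidine deaminase family (0.49 ± 0.14), and Zfp965, a zinc-finger gene with close relatives that can share its reads (0.38 ± 0.11).

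On the lower side stood Setmar, a SET-domain methyltransferase, with 4.34 to 5.63 CPM (median 4.89) in low and 4.76 to 6.47 CPM (median 5.59) in high libraries. Its log2 difference was -0.20 ± 0.053, and 8 of the 17 high libraries lay above the highest low one. Apip, an enzyme of methionine salvage, averaged 9.18 ± 0.910 CPM against 10.2 ± 0.761 CPM (-0.17 ± 0.045), and Pfdn4, a subunit of the prefoldin chaperone, 11.9 ± 1.04 CPM against 13.1 ± 0.896 CPM (-0.15 ± 0.042). Coil, the scaffold of Cajal bodies, differed by -0.094 ± 0.028. The remaining 4 were subunits of the respiratory chain and ATP synthase (Atp5h, Atp5j2 and Ndufa2) and Dgcr14, described below with their groups.

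**Figure D2:**
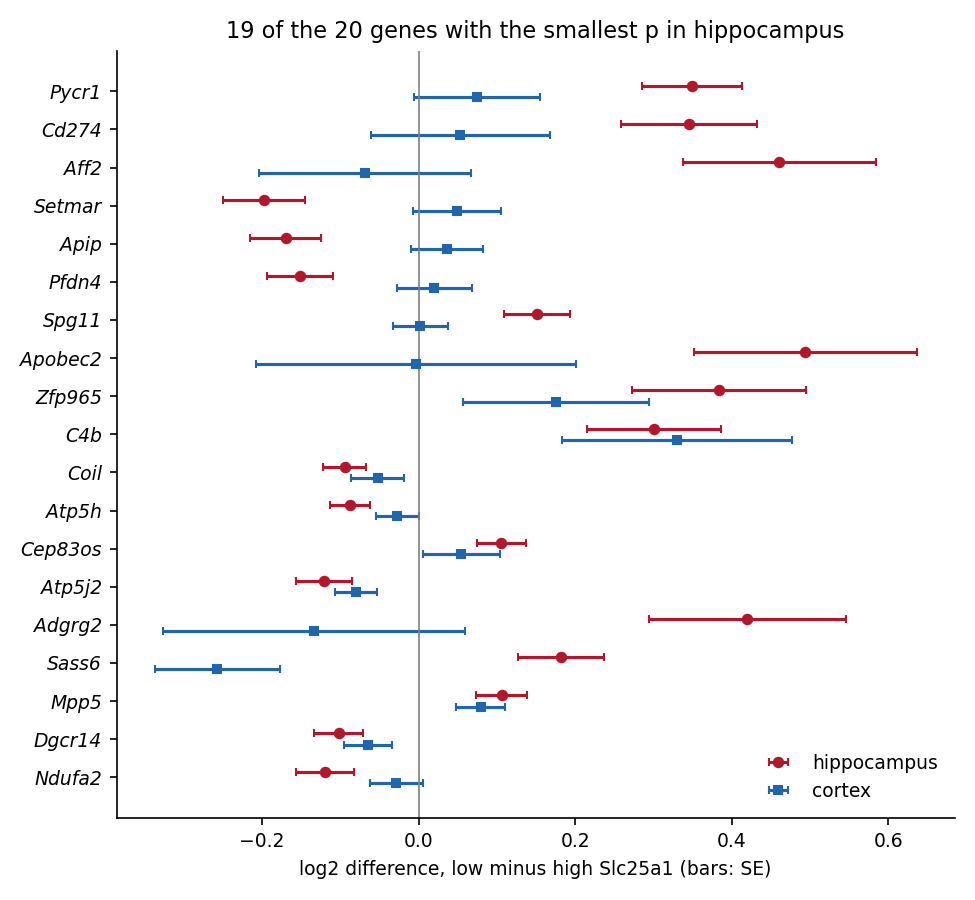
Log2 difference, low minus high Slc25a1 (horizontal axis), with SE bars, for 19 of the 20 genes of smallest p in hippocampus (circles). Genes with a blank or predicted gene's symbol were passed over. Squares give the same genes in cortex of the same animals. In hippocampus they were chosen for their p, so all lie away from 0; in cortex Sass6 lies on the opposite side, at -0.26, and C4b at 0.33.

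The same animals' cortex libraries were fitted the same way, and the difference between the tissues was tested with the animal as a block. In cortex edgeR called 1 of 20219 genes (0.00495%), Tmc1, a channel protein of hair cells, with a log2 difference of 0.83 ± 0.15 (adjusted p = 0.0316), and 1900 genes (9.4%) had an unadjusted p under 0.05. The tissue difference passed for 0 of 22778 genes, with 1388 at an unadjusted p under 0.05 and a smallest adjusted p of 0.363, so no gene can be called particular to hippocampus. Pycr1 in cortex differed by 0.074 ± 0.081, with low libraries at 2.78 to 4.04 CPM and high libraries at 2.29 to 4.20 CPM. Hippocampus minus cortex was 0.27 ± 0.097 for Pycr1 (edgeR adjusted p = 0.729). Sass6 had the opposite sign in cortex, at -0.26 ± 0.080, and a hippocampus minus cortex value of 0.44 ± 0.098 (edgeR adjusted p = 0.363). Kcnj5, a potassium channel subunit, had the smallest p of the tissue difference, also with an adjusted p of 0.363 in edgeR. C4b had a similar value in both tissues, 0.30 in hippocampus and 0.33 ± 0.15 in cortex, where it was lower overall at 6.21 to 14.2 CPM in low and 5.55 to 12.8 CPM in high libraries.

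**Figure D3:**
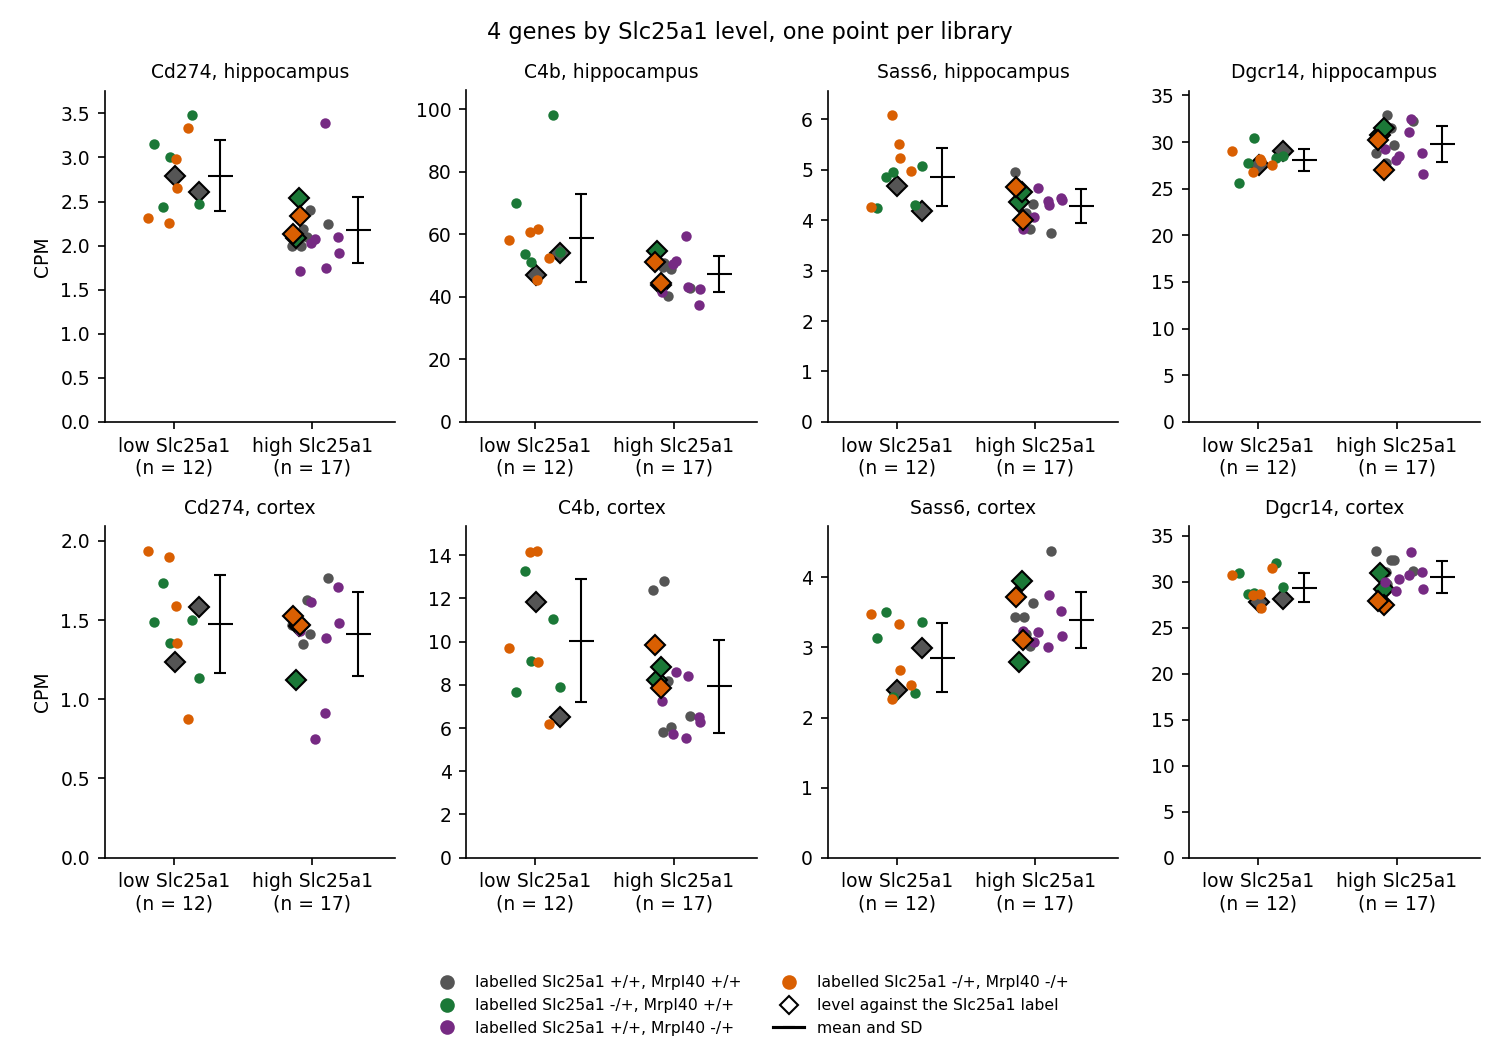
CPM (vertical axes, from 0) of Cd274, C4b, Sass6 and Dgcr14 in each library of hippocampus (top) and cortex (bottom), by Slc25a1 level, with mean and SD. In hippocampus the low libraries reach from 2.25 to 3.48 CPM for Cd274 and from 45.5 to 98.1 CPM for C4b, and in every panel the groups overlap.

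Subunits of the respiratory chain and ATP synthase lay slightly lower in low libraries as groups, and 0 of them passed the test. Of 36 tested subunits of complexes III to V, 35 were below 0, with a median log2 difference of -0.057 beside -0.0015 over all genes, and 10 were lower at an unadjusted p under 0.05, beside 2.02% of all genes. Of 36 complex I subunits, 33 were below 0, with a median of -0.041 and 6 at an unadjusted p under 0.05. Atp5h, a subunit of the ATP synthase stalk, averaged 79.7 ± 4.18 CPM in low and 83.8 ± 3.33 CPM in high libraries (log2 difference -0.087 ± 0.026). Atp5j2, a subunit of its membrane part, averaged 74.1 ± 4.71 CPM against 79.7 ± 5.01 CPM (-0.12 ± 0.036). Among complex I subunits Ndufa2 averaged 25.9 ± 2.23 CPM against 27.8 ± 1.78 CPM (-0.12 ± 0.037), and Ndufa1 differed by -0.12 ± 0.039. In cortex 21 of the 36 subunits of complexes III to V and 23 of the 36 of complex I were below 0, with medians of -0.014 and -0.016. The sign in hippocampus was not particular to these groups. There 56 of 78 cytosolic ribosomal protein genes (median -0.015) and 23 of 32 genes of glycolysis and pyruvate entry (median -0.034) were below 0, beside 51% of all genes.

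Other mitochondrial groups had the same sign in hippocampus. In the citrate cycle 20 of 23 genes were below 0 (median -0.031), and the succinate dehydrogenase subunits Sdhc and Sdhb differed by -0.058 ± 0.027 and -0.056 ± 0.027, Sdhc by -0.038 ± 0.025 without animal 26, a low library. Dlat, the acetyltransferase of the pyruvate dehydrogenase complex, differed by -0.13 ± 0.056. Of the mitochondrial ribosome, 35 of 49 large-subunit genes (median -0.024) and 27 of 30 small-subunit genes (median -0.029) were below 0. Mrpl20 had the smallest p of the large subunit (-0.11 ± 0.036), with Mrpl38 next (-0.088 ± 0.031), and Mrps11 and Mrps2 differed by -0.096 ± 0.035 and -0.071 ± 0.028. Mrpl40 itself ran from 14.6 to 17.7 CPM in low and from 13.2 to 17.6 CPM in high libraries, a log2 difference of 0.013 ± 0.039. In cortex of the same animals 18 of the 23 citrate cycle genes were above 0 (median 0.011). Of the mitochondrial ribosome, 26 of 49 large-subunit and 18 of 30 small-subunit genes were below 0 in cortex (medians -0.0025 and -0.0095).

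Among the carriers of the SLC25 family, the kin of Slc25a1, 33 of 43 were below 0 (median -0.017). Slc25a21, which carries oxoadipate and oxoglutarate, was the member of smallest p, at 0.235 to 0.896 CPM in low and 0.117 to 0.774 CPM in high libraries (0.53 ± 0.22), a level at which few reads are counted. Slc25a29, a carrier of basic amino acids, averaged 12.6 ± 0.898 CPM against 13.9 ± 2.01 CPM (-0.15 ± 0.068), with its highest value, 19.6 CPM, in animal 22. In cortex 23 of 44 tested carriers were below 0 (median -0.0028).

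These mitochondrial genes have mostly short transcripts, and a trend with transcript length moved with the groups. With genes cut by summed exon length into 5 bins, the median log2 difference ran from -0.015 in the shortest bin to 0.013 in the longest, and the contrast of short against long genes averaged -0.015 ± 0.052 (SD, n = 12) in low and 0.011 ± 0.036 (SD, n = 17) in high libraries. With length and GC trends removed from each library, an alternative chosen after seeing the data, 35 of 36 subunits of complexes III to V (median -0.054) and 33 of 36 of complex I (median -0.042) were below 0, beside a median of -0.0087 over all genes. Without the 6 animals whose level goes against the label, 35 of 36 and 34 of 36 were below 0, with medians of -0.074 and -0.075 and 19 of each lower at an unadjusted p under 0.05, beside 3.95% of all genes in that fit. The length contrast between the groups was then wider too, at -0.034 ± 0.026 (SD, n = 10) in low and 0.0087 ± 0.039 (SD, n = 13) in high libraries; animal 6, which is left out, had the highest value of the 29, 0.114. Without animal 22, an alternative also chosen after seeing the data, 35 of 36 subunits of complexes III to V (median -0.048) and 30 of 36 of complex I (median -0.036) were below 0, each with 6 lower at an unadjusted p under 0.05, beside 1.59% of all genes. Subunits of 1 complex share their libraries and are not replicates.

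**Figure D4:**
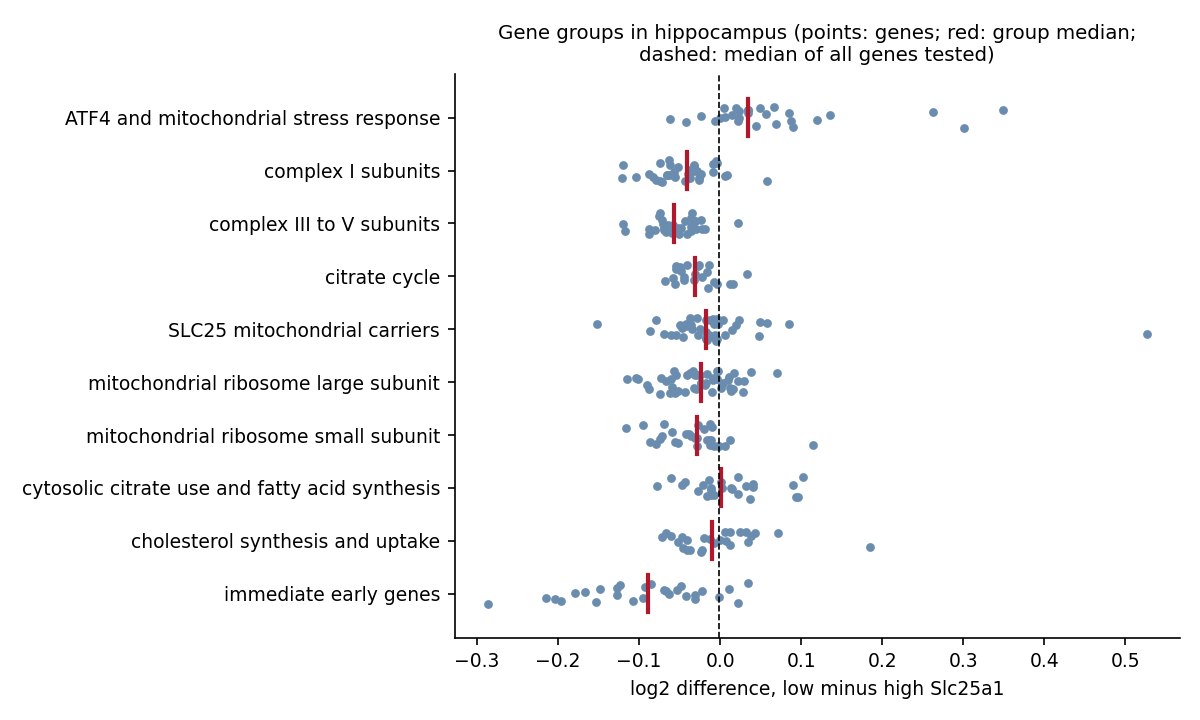
Log2 difference, low minus high Slc25a1 (horizontal axis), for each tested gene of 10 gene groups in hippocampus (points), with the group median in red and the median of all genes as a dashed line. The medians run from -0.089 for immediate early genes and -0.057 for complexes III to V to 0.034 for the ATF4 list, and 0 points passed the test.

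Genes that use the exported citrate were on both sides of 0. Of 26 genes of cytosolic citrate use and fatty acid synthesis, 14 were above and 12 below (median 0.0014), and 0 had an unadjusted p under 0.05. Of 26 genes of cholesterol synthesis and uptake, 14 were below 0 in hippocampus (median -0.011), with 0 at an unadjusted p under 0.05. In cortex of the same animals 25 of the 26 cholesterol genes were below 0 (median -0.070), with 8 lower at an unadjusted p under 0.05, beside 4.96% of all cortex genes. That the tissues differ in these genes was not tested as a group.

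On chromosome 16 the neighbours of Slc25a1 were examined by the distance of their starts, taken from GENCODE vM21. Within 200 kb, 10 of 12 genes were below 0 (median -0.028), and within 1000 kb 43 of 61 were (median -0.014), against 255 of 532 on the rest of the chromosome (median 0.0030). In cortex of the same animals 7 of the 12 within 200 kb were below 0 (median -0.046). Within 1000 kb 32 of the 61 were below 0 there (median -0.0018), so the wider lean was not seen in cortex. None passed. Dgcr14, a nuclear protein tied to splicing, at -16.9 kb, ran from 25.6 to 30.4 CPM (median 28.1) in low and from 26.5 to 32.9 CPM (median 29.7) in high libraries, and 7 of the 17 high libraries lay above the highest low one. Its log2 difference was -0.10 ± 0.031 in hippocampus and -0.064 ± 0.031 in cortex. Dgcr6, at 125 kb, averaged 32.0 ± 2.37 CPM against 34.9 ± 3.97 CPM (-0.13 ± 0.055), with -0.11 ± 0.035 in cortex. The label of the deletion and these neighbours share the chromosome, so an effect of the altered allele and one of the flanking sequence cannot be told apart.

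Within 1000 kb, 4 genes were lower and 1 was higher at an unadjusted edgeR p under 0.05, beside 2.02% and 2.24% of all genes. The lower ones were Dgcr14, Dgcr6, Ccdc74a (-0.10 ± 0.045) and Lrrc74b, and the higher one was Smpd4 (0.086 ± 0.034). Lrrc74b leaned on 1 library. Its log2 difference was -0.81 ± 0.38, and without animal 22 (labelled Mrpl40 -/+, Slc25a1 +/+), which had 2.45 CPM where the next highest of its labelled group had 0.656 CPM, it was -0.49 ± 0.27. In cortex Lrrc74b differed by 0.064 ± 0.12, Ccdc74a by -0.096 ± 0.051 and Smpd4 by 0.020 ± 0.028.

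**Figure D5:**
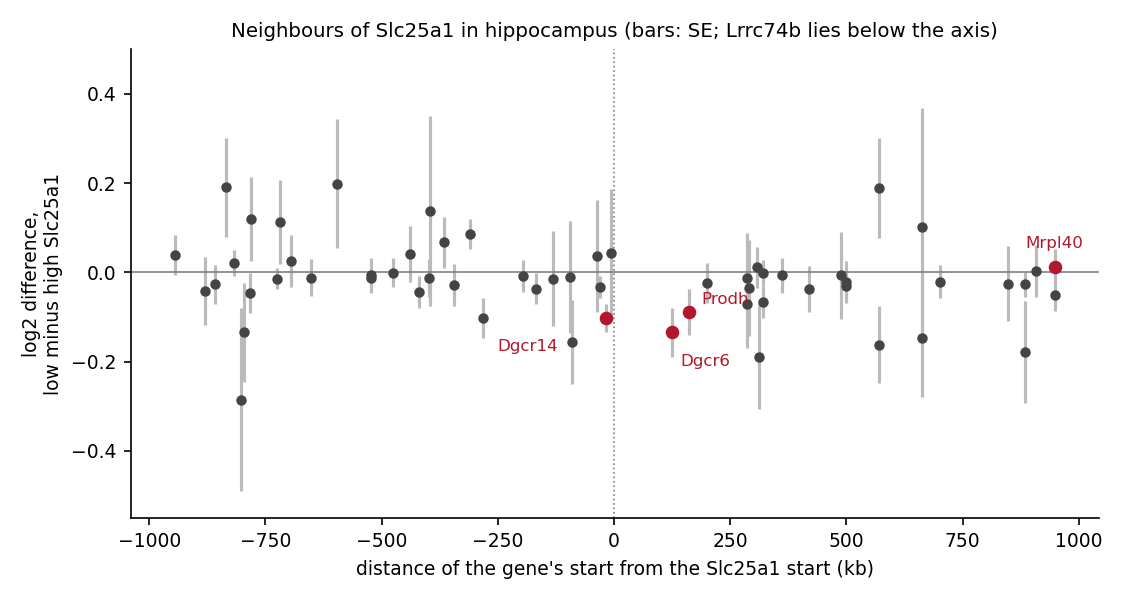
Log2 difference, low minus high Slc25a1, in hippocampus (vertical axis, with SE bars) against the distance of each gene's start from that of Slc25a1 (horizontal axis, kb) within 1000 kb. Dgcr14 (-0.10), Dgcr6 (-0.13), Prodh (-0.089) and Mrpl40 (0.013) are named; Lrrc74b (-0.81) lies below the axis.

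Markers of the hippocampal cell types and of tissue next to it were set beside these values. All 8 tested CA3 markers, all 6 CA2 markers and 6 of 7 CA1 markers were below 0 (medians -0.074, -0.14 and -0.064), whereas 10 of 11 dentate granule markers and 10 of 11 neocortical layer markers were above 0 (medians 0.093 and 0.059), and 0 of them had an unadjusted p under 0.05. The summed level of the dentate granule markers ran from 1150 to 1871 CPM in low and from 898 to 1955 CPM in high libraries, and that of CA1 markers from 188.7 to 794 CPM and from 224.9 to 804 CPM. In bulk tissue, fewer cells of a type and less RNA per cell cannot be told apart. Without the 6 animals whose level goes against the label, 5 of the 7 CA1 markers were above 0, so the CA1 count turned. Markers of the choroid plexus, which makes cerebrospinal fluid, were below 0 in 8 of 9 cases (median -0.28), and ependymal markers, of the cells lining the ventricles, in 3 of 3 (median -0.23). The summed choroid plexus markers ran from 29.7 to 48.5 CPM in low and from 26.8 to 107.1 CPM in high libraries, highest in animals 30 and 22, and the ependymal sum from 4.11 to 7.79 CPM and from 4.84 to 30.4 CPM. Without animal 22 the choroid plexus median was -0.17 over 8 tested markers, the ependymal median -0.044, the CA3 median -0.038 and the CA2 median -0.086. The levels of Dlat, Slc25a29 and Lrrc74b were also highest of their labelled group in animal 22. The part of the makeup of the dissected tissue in the mitochondrial values was not tested.

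Cerebellum markers were below 0 in 9 of 10 cases (median -0.84), led by the synaptic organisers Cbln3 (-2.67 ± 1.16) and Cbln1 (-1.46 ± 0.65). This rested on the library of animal 12: without it 9 of 10 were above 0 (median 0.38), Cbln3 at 0.51 ± 0.33 and Cbln1 at -0.14 ± 0.18. Without that library 33 of 36 complex I and 35 of 36 complex III to V subunits were below 0, and Pycr1 differed by 0.34 ± 0.065 (edgeR adjusted p = 0.102).

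Immediate early genes, transcribed within minutes of neuronal activity, were below 0 for 25 of 28 members, with a median of -0.089. Junb ran from 22.2 to 34.4 CPM in low and from 20.7 to 41.9 CPM in high libraries (-0.15 ± 0.069), and Klf4 averaged 4.25 ± 0.779 CPM against 4.84 ± 0.876 CPM (-0.20 ± 0.096). In cortex 19 of the 28 were below 0 (median -0.076). Among the heat shock genes 16 of 20 were below 0 in hippocampus and 6 of 20 in cortex. Dnajb1, a co-chaperone of HSP70, differed by -0.087 ± 0.035 in hippocampus. Of the inhibitory system, Gabrb2, a GABA-A receptor subunit, differed by 0.26 ± 0.12 and Pvalb, the marker of fast-spiking interneurons, by -0.38 ± 0.18, while 8 of 14 interneuron markers were above 0. Pvalb was highest in animal 12, at 57.1 CPM where the median of the high libraries was 17.8 CPM, and without that library it differed by -0.22 ± 0.13. Over all 39 gene lists examined, 0 members passed the test.

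The comparison was repeated within each Mrpl40 label. Among libraries labelled Mrpl40 +/+ (7 low, 8 high) edgeR called 0 of 19302 genes (0%), with 747 at an unadjusted p under 0.05, and among those labelled Mrpl40 -/+ (5 low, 9 high) 0 of 19740 (0%), with 1000. The interaction of level and Mrpl40 label called 0 of 20531 genes, with 937 at an unadjusted p under 0.05. Its smallest adjusted p was 0.347, for Kcnh6, a potassium channel (1.27 ± 0.26), and for Gm14204, a predicted gene (0.70 ± 0.14). Pycr1 differed by 0.41 ± 0.089 within Mrpl40 +/+ and by 0.28 ± 0.11 within Mrpl40 -/+, and its interaction was -0.13 ± 0.13.

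Grouped by the Slc25a1 label in place of the level, with the Mrpl40 label as covariate, the same 29 libraries gave 0 calls among 19698 genes (0%) and 1843 at an unadjusted p under 0.05. The smallest adjusted p in edgeR was 0.454, shared by more genes than are named here. An adjusted p under 0.5 was found for 1108 genes, against 1 in the grouping by level. The 5 genes of smallest p began with Car13, a carbonic anhydrase (1.19 ± 0.27), and Cops6, a subunit of the COP9 signalosome (-0.12 ± 0.027). Next came Eif1b, a translation initiation factor (-0.17 ± 0.038), and Nudc-ps1, a pseudogene whose reads can be shared with its parent gene (-0.15 ± 0.037). The last was Bmpr1a, a bone morphogenetic protein receptor (0.12 ± 0.030). The label and the level place 23 of the 29 animals alike, and the difference between them was not tested.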

How the data were processed

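Poly(A) RNA of hippocampus and cortex was sequenced with a directional kit, 1 library per tissue and animal, and the 29 hippocampus libraries and the cortex libraries of the same 29 animals were used. The authors deposited a table of raw counts with 57180 gene rows, 7074 of them with a blank symbol. The authors also deposited normalized counts (a signal), equal to raw counts over a library factor (checked on the values, largest relative range 9.81e-10). Per the submitters' processing notes the tools were FastQC, HISAT2, featureCounts and DESeq2 and the builds mm39 and GRCm39, with no roles or versions. The notes do not say whether counting used strand. All 37 mitochondrial gene rows hold 0 counts. Gene starts and exon lengths were taken from the GRCm38 annotation GENCODE vM21 and found for 97.5% of tested genes.

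Libraries were grouped by Slc25a1 CPM. The members and the gene lists were chosen with earlier results of these data known. Slc25a1 stayed in the fits and out of every count. Counts were tested with edgeR 4.0.16 (quasi-likelihood, TMM, its filter on low counts, robust) in R 4.3.3, with the labelled Mrpl40 genotype as covariate, Benjamini-Hochberg adjustment over all genes and a limit of 0.05. The steps were tested on simulated data. CPM has no correction for gene length, so levels are not compared between genes. Replicate numbers do not pair animals across groups; the animal was the block between tissues, where deviations of the same animal's libraries correlated with a median of 0.114 over 5000 genes (range -0.0433 to 0.400), against -0.00796 for different animals.

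Named genes were the 20 of smallest p with a symbol that is not blank or a predicted gene's (1 of them is not reported here), Mrpl40, the 2 members of smallest p of each list, and the 5 of smallest p for the tissue difference, interaction and labelled fits. Other named genes were picked with their values in view. The alternatives were DESeq2 size factors, no filter, the DESeq2 1.42.0 Wald test, 2 surrogate variables from sva 3.50.0, a minimum fold of 1.2, no Mrpl40 covariate, the Slc25a1 label as covariate, a replicate block, no animal block, fits without the 6 animals or without animal 12, each library left out, the level from cortex, and limma 3.58.1 on log2 of the normalized count plus 1. Length and GC trends as offsets, and gene list counts without animal 22, were added after seeing the data. Figures were drawn with matplotlib 3.10.9.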

Additional observations from a re-analysis of the deposited data

Results flagged for a closer look

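In each labelled genotype within a level that held 5 to 7 libraries, the highest and lowest hippocampus value was set against its group for the 44 genes followed through every alternative. A gap to the nearest other value too large for the group's range was found in 16 of 176 groups (9.09%). The limit is set to flag about 1 in 20 groups of independent, normally spread values. These genes were chosen from the same data and share their libraries, so the share cannot be set against chance. For Pycr1 it was the 3.83 CPM of animal 27, labelled Mrpl40 -/+, Slc25a1 -/+ and low, where the next value was 3.09 CPM. In the same labelled and low group, animal 25 stood apart in 4 genes: Adgrg2 was highest there at 2.79 CPM (next 2.00), Klf4 at 5.77 CPM (next 4.27) and Pvalb at 22.8 CPM (next 16.1), and Mrps2 was lowest at 27.6 CPM (next 30.6). Slc25a29 was highest in animal 28 of that group, at 14.4 CPM (next 12.6).

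Among libraries labelled Mrpl40 -/+, Slc25a1 +/+, all of them high, animal 22 was highest for Lrrc74b at 2.45 CPM (next 0.656), Dlat at 180.1 CPM (next 143.5) and Slc25a29 at 19.6 CPM (next 15.2). Animal 23 of that group was highest for Cd274 at 3.39 CPM (next 2.10), and animal 21 lowest for Coil at 21.5 CPM (next 23.0). Among high libraries labelled Mrpl40 +/+, Slc25a1 +/+, animal 8 was highest for Adgrg2 at 2.32 CPM (next 1.30) and for Cbln1 at 5.46 CPM (next 2.93), and animal 5 for Cbln3 at 2.19 CPM (next 0.928). Among low libraries labelled Mrpl40 +/+, Slc25a1 -/+, animal 10 was lowest for Apip at 8.09 CPM (next 9.57) and animal 11 highest for Ndufa1 at 23.6 CPM (next 22.6). Groups of 2 libraries were not examined.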

How the results depend on the processing

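The count of genes past the test between low and high libraries was 0 and became 1 with no filter on low counts, 1 with no Mrpl40 covariate and 1 with the replicate block. With each library left out it lay between 0 and 1. The gene called with no covariate, and in the 4 leave-outs that made a call, was Pycr1. With no filter and with the replicate block it was Sox14, which had reads in 5 of 12 low libraries (at most 32) and 3 of 17 high libraries (at most 1). The filter depends on the fitted model. It removed Sox14 in the main comparison and kept it with the replicate block. Replicate numbers were checked as pairs: deviations of same-numbered libraries correlated with a median of 0.0564, and 3 of 29 libraries correlated best with their own number, so the block shares only a number. With it Pycr1 differed by 0.33 ± 0.082 (edgeR adjusted p = 0.753), and the labelled contrast again had 0 calls. Counts of the tissue difference, interaction, labelled and cortex fits did not move under their alternatives, no animal block included. Over 44 genes, 1837 of 1848 values kept their sign and their side of the limit. That count is no independent support. The level from cortex repeats the main fit, and the fit without animal 12 is also counted among the leave-outs. Apart from Pycr1 these genes lay far from the limit, so keeping that side says little. Cbln3 turned to 0.50 with DESeq2, 0.71 without the 6 animals whose level goes against the label, and 0.51 without animal 12. Mrpl40 turned in 2 leave-outs (range -0.0017 to 0.027) and Cbln3 in 1 (-3.48 to 0.51). The cause was not tested except for the fits without animal 12. At these depths a fold of at least 1.2 gave 0 calls and 54 genes at an unadjusted p under 0.05.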
